A study of Mus musculus with 2 samples.

Results

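The protocadherin beta (Pcdhb) cluster is an array of 22 related genes on mouse chromosome 18, and its CpG methylation was read here as every CpG listed between bases 37420001 and 37700001 of the mm9 (NCBIM37) build. That rule, which used position and no methylation value, gave 351 CpGs of the 1790826 in the table. The 2 samples were mouse embryonic fibroblast lines, Dnmt1+/+ and Dnmt1-/-, each represented by 1 library. The study's text describes the Dnmt1-/- line as homozygous for a hypomorphic allele of Dnmt1, so some enzyme may remain, and both lines also lack trp53. The methylation table has no expression values, so the level of Dnmt1 could not be read from it. The study compared the lines to learn how loss of DNA methylation affects chromatin marks and genes.

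Clustered protocadherins are cell adhesion molecules best known from neurons, where each cell uses a small choice of isoforms and so carries its own surface identity. Each Pcdhb gene has its own promoter and a single large coding exon, which encodes extracellular cadherin repeats, a transmembrane segment and a short tail, unlike the alpha and gamma genes, which share constant exons. DNA methylation of promoters and exons in these clusters is known to accompany silence of a given isoform. The enzyme Dnmt1 restores CpG methylation on daughter strands when DNA is replicated.

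Methylation was measured by reduced-representation bisulfite sequencing (RRBS) with extended coverage, where DNA is cut by restriction enzymes and bisulfite converts unmethylated cytosine, so that cytosine still read as C counts as methylated. Of the 351 CpGs, 159 lay in CCGG or TCGA, the motifs cut by MspI and TaqI, which are common RRBS enzymes. Those site CpGs averaged 83.7% in Dnmt1+/+ and 52.2% in Dnmt1-/-, and the same kind of CpG over all chromosomes averaged 82.8% and 57.1%. The other 192 CpGs, called non-site CpGs here, read far lower in Dnmt1-/-. The cause of this gap was not tested, and with the site CpGs included the Dnmt1-/- mean of the cluster was 26.9% in place of 5.87%. Site CpGs were set aside because an earlier analysis of these data had shown them to read high in unmethylated regions. The values that follow are over non-site CpGs unless stated. They carried 7049 methylation calls in Dnmt1+/+ and 7150 in Dnmt1-/-, with a median depth of 35 in each. With no replicates, the intervals given are 95% Wilson intervals of pooled calls. They treat calls as independent, although neighbouring CpGs can share reads, so they are too narrow even for counting error. They also leave out the difference between cultures. Whether such intervals overlap is therefore a description and not a test.

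Across the cluster, methylation averaged 77.6% in Dnmt1+/+ (interval of the pooled calls 77.5 to 79.5) and 5.87% in Dnmt1-/- (interval 5.50 to 6.60). The Dnmt1-/- mean was thus 7.56% of the Dnmt1+/+ mean. Every one of the 192 CpGs was lower in Dnmt1-/- than in Dnmt1+/+. With site CpGs included, 12 CpGs of the window read higher in Dnmt1-/-. Over the whole table of 996064 non-site CpGs the means were 45.0% and 15.1%, and the Dnmt1-/- mean was 33.6% of the other.

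Single CpGs were compared by Fisher's exact test (two-sided) on their methylated and unmethylated calls, adjusted by Benjamini-Hochberg over all 1790826 CpGs, which compares the libraries and not the genotypes. Of the 192 CpGs, 184 were lower in Dnmt1-/- at an adjusted p under 0.05, against 44.2% of non-site CpGs in the table. By that test 0 were higher, against 0.635% in the table, and 0 were higher at an unadjusted p under 0.05. The starting levels differed, since 48.2% of the CpGs of the table and 1.56% of those of the cluster were at 20% or less in Dnmt1+/+. Among CpGs at 80% or more in Dnmt1+/+, all 111 of the cluster were called lower, against 88.2% in the table. Over all 351 CpGs, site CpGs included, 275 were lower against 43.7%, and 0 were higher against 0.462%.

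In Dnmt1+/+, 57.8% of the CpGs were at 80% or more, 3 CpGs were at 20% or less, and 78 lay between. In 16 CpGs every call was methylated. In Dnmt1-/-, 94.8% of the CpGs were at 20% or less, none reached 50%, and 71 CpGs had no methylated call. A count of 0 at the median depth of 35 allows methylation of up to 8.57%, and at 10 calls, the minimum kept in the table, of up to 30%. CpGs without a methylated call in Dnmt1-/- made up 37.0% of the cluster and 35.7% of the table. Among CpGs at 80% or more in Dnmt1+/+ they made up 31.5% and 10.8%.

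**Figure D1:**
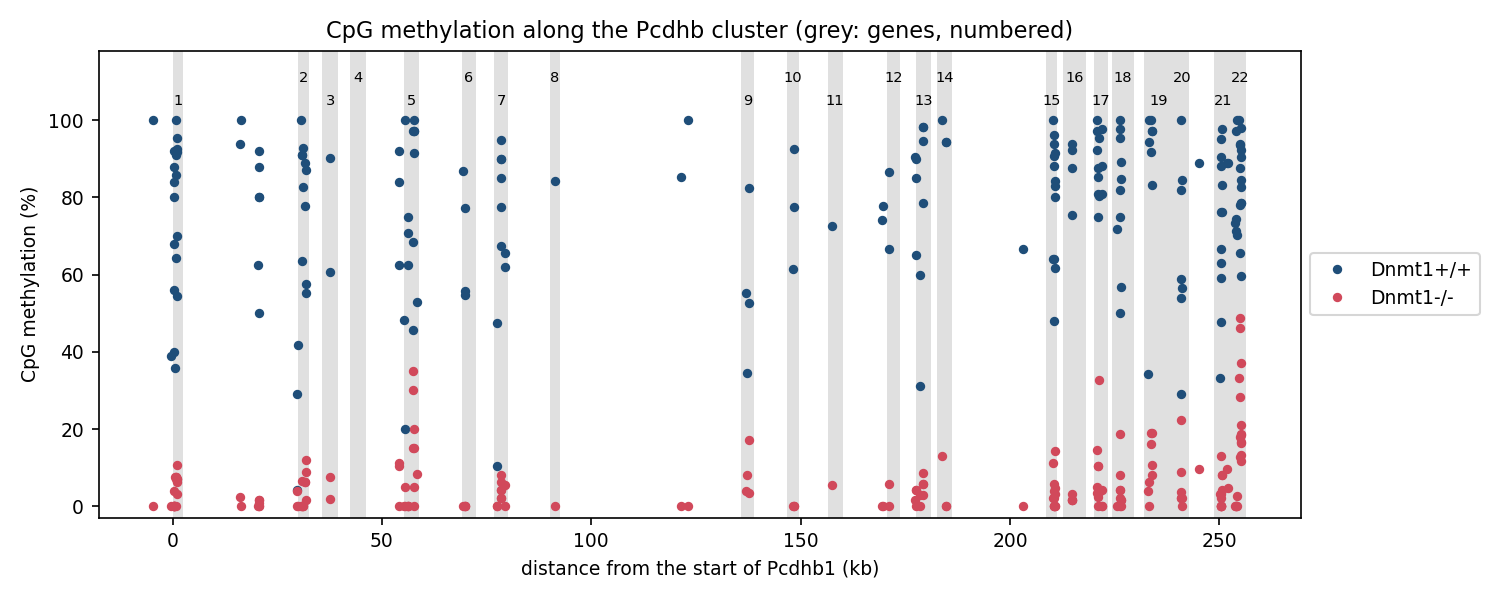
Methylation (%, vertical axis) of the 192 non-site CpGs against distance in kb from the start of Pcdhb1, with Dnmt1+/+ in blue, Dnmt1-/- in red and the 22 numbered genes as grey bands. The Dnmt1-/- points lie at 20% or less except for 10 CpGs, most of them at the right end in Pcdhb22.

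The fall ran the length of the array. In consecutive 40 kb stretches of the window the Dnmt1+/+ mean stayed between 70.4% and 83.8%, and the Dnmt1-/- mean between 2.94% and 10.7%. The first 40 kb, with Pcdhb1 and Pcdhb2, went from 74.1% to 2.94% over 41 CpGs, and the last 40 kb, with Pcdhb20 to Pcdhb22, went from 78.1% to 10.7% over 42 CpGs. The interval of the pooled Dnmt1-/- calls was 2.02 to 3.80 in the first of these and 9.17 to 12.1 in the last, so they did not overlap. In the plot along the cluster, the higher Dnmt1-/- values at its right end belong mainly to Pcdhb22.

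The CpGs were spread unevenly over the genes. Of the 22 genes, 21 held at least 1 CpG and Pcdhb4 held none. The genes were compared through the 12 with at least 5 non-site CpGs. The median of their means was 76.6% in Dnmt1+/+ and 4.17% in Dnmt1-/-. The Dnmt1+/+ means ran from 66.4% in Pcdhb20 to 88.4% in Pcdhb17, and the Dnmt1-/- means from 3.23% in Pcdhb7 to 17.1% in Pcdhb22. All 12 genes were lower by more than 25 percentage points.

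Among the 9 genes with at least 10 CpGs, the lowest Dnmt1-/- means were in Pcdhb7, Pcdhb2 and Pcdhb15. Pcdhb7 averaged 69.0% in Dnmt1+/+ and 3.23% in Dnmt1-/- over 10 CpGs (interval 2.32 to 6.40 in Dnmt1-/-). Pcdhb2 averaged 77.4% and 3.48% over 12 CpGs (interval 3.02 to 7.75). Pcdhb15 averaged 80.4% and 3.66% over 13 CpGs (interval 2.33 to 5.86). Pcdhb21, Pcdhb1 and Pcdhb18, at 4.01%, 4.02% and 4.05%, had intervals that overlapped these, so the 6 genes are not separated at this depth.

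Over all non-site CpGs, the highest Dnmt1-/- means among the same 9 genes were in Pcdhb22, Pcdhb5 and Pcdhb17. Pcdhb22 averaged 83.5% in Dnmt1+/+ and 17.1% in Dnmt1-/- over 20 CpGs (interval 15.3 to 20.6). Pcdhb5 averaged 75.3% and 10.3% over 13 CpGs (interval 7.70 to 15.8). At a depth of at least 20 the Dnmt1-/- mean was 17.1% in Pcdhb5 and 18.2% in Pcdhb22. Pcdhb17 averaged 88.4% and 7.24% over 12 CpGs (interval 7.04 to 11.5). The interval of Pcdhb22 overlapped that of Pcdhb5 and lay above that of Pcdhb17. The order did not hold when only CpGs whose surrounding 51 bases occur once in the converted genome were used. The Dnmt1-/- mean was then 8.69% in Pcdhb17, 7.68% in Pcdhb22 over 10 CpGs and 7.62% in Pcdhb5. The 10 CpGs this left out of Pcdhb22 all lay after coding base 1200, where the 3 kept averaged 13.6%. The 7 CpGs up to that base, all kept, averaged 5.16%.

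By difference between the libraries, the largest falls of these 9 genes were in Pcdhb17, by 81.1 percentage points, Pcdhb15, by 76.7, and Pcdhb18, by 76.2. The smallest were in Pcdhb5, where methylation fell by 65.0 points, Pcdhb7, where it fell by 65.8, and Pcdhb22, where it fell by 66.3. Of these last 3, Pcdhb7 had the lowest Dnmt1+/+ mean, and Pcdhb5 and Pcdhb22 had the higher Dnmt1-/- means. Neither end of this order held under every setting. At a depth of at least 20, Pcdhb1 read 83.4% in Dnmt1+/+ and 2.97% in Dnmt1-/-, and Pcdhb7 84.2% and 4.46%, both larger falls than in Pcdhb15 and Pcdhb18. Over CpGs whose 51 bases occur once, a filter that left out 10 CpGs late in its exon, Pcdhb22 read 85.7% and 7.68%. That placed it among the 3 largest falls. Pcdhb1 averaged 75.8% and 4.02% over 17 CpGs, and Pcdhb21 averaged 75.3% and 4.01% over 14.

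Another 3 genes, Pcdhb13, Pcdhb19 and Pcdhb20, had between 5 and 9 CpGs. Pcdhb13 averaged 75.1% in Dnmt1+/+ and 4.29% in Dnmt1-/- over 7 CpGs, and Pcdhb19 averaged 87.3% and 10.4% over 8. The remaining genes with CpGs had 1 to 4 each. Pcdhb6 had 4 CpGs at 54.7% to 87.0% in Dnmt1+/+ and no methylated call among 116 in Dnmt1-/-. Pcdhb10 had 3 CpGs at 61.5% to 92.5% and no methylated call among 65. Pcdhb9 had 4 CpGs at 34.5% to 82.5% in Dnmt1+/+ and 3.45% to 17.2% in Dnmt1-/-. Pcdhb14 had 3 CpGs at 94.4% to 100% and at 0% to 13.0%. Pcdhb16 had 4 CpGs at 75.4% to 93.8% and at 1.64% to 3.28%. Pcdhb3, Pcdhb8, Pcdhb11 and Pcdhb12, with 1 or 2 CpGs each, had gene means between 72.7% and 84.2% in Dnmt1+/+ and between 0% and 5.56% in Dnmt1-/-.

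**Figure D2:**
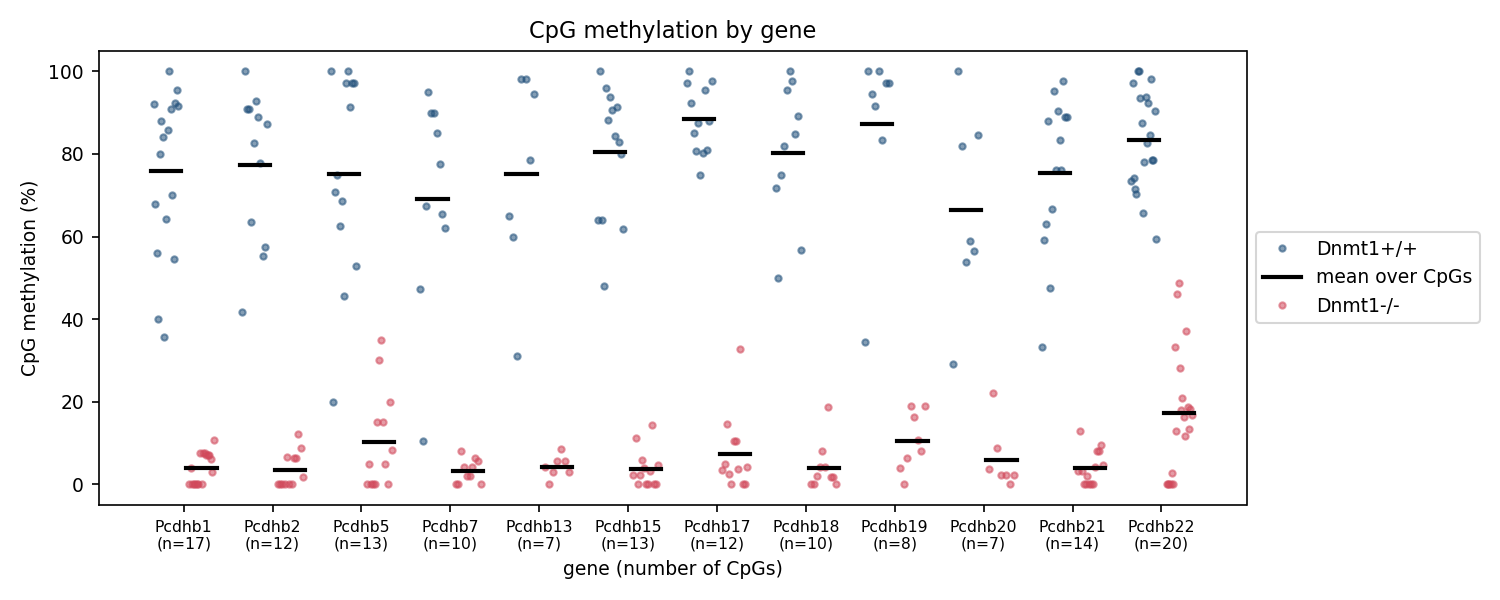
Methylation (%, vertical axis) of each non-site CpG in the 12 genes with at least 5 of them (horizontal axis, n in brackets), with Dnmt1+/+ in blue, Dnmt1-/- in red and the mean over CpGs as a black bar. The Dnmt1-/- means lie between 3.23% and 17.1%, far below the Dnmt1+/+ means of 66.4% to 88.4%.

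Pcdhb18 (bases 37649119 to 37654159, plus strand) had 10 non-site CpGs, all in its coding exon, and averaged 80.2% in Dnmt1+/+ (interval 75.7 to 82.8) and 4.05% in Dnmt1-/- (interval 2.30 to 5.39). All 10 were called lower, against 44.2% of CpGs in the table. The most upstream of them, at coding base 839, went from 71.7% to 0%. It had 92 and 93 calls, against 46 and 46 or 47 at bases 37650067 and 37650137 on either side, and whether calls there were counted more than once was not tested. The other 9 lay between coding bases 1590 and 1829. A site CpG at base 1746 lay between the first 6 of them, with 44 calls each in Dnmt1+/+ and 48 or 49 in Dnmt1-/-, and the last 3, with 44 to 46 and 60. In that stretch Dnmt1+/+ ranged from 50% at base 1590 and 56.8% at base 1829, its edges, to 100% at base 1719. Both edge CpGs were at 0% in Dnmt1-/-. The highest Dnmt1-/- value of the gene was 18.8%, at base 1737, a CpG at 97.7% in Dnmt1+/+. The other Dnmt1-/- values in the stretch ran from 1.67% to 8.16%.

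Pcdhb20 (bases 37663926 to 37667476, plus strand) is annotated as a pseudogene without a coding sequence in the GENCODE release used, so its CpGs were placed from the gene start. The study nonetheless measured mRNA of this gene by quantitative RT-PCR. Its 7 non-site CpGs, between bases 1534 and 1704 of the gene, averaged 66.4% in Dnmt1+/+ (interval 60.5 to 72.3) and 5.93% in Dnmt1-/- (interval 3.01 to 8.25). All 7 were called lower, again against 44.2%. Neighbouring CpGs differed widely in Dnmt1+/+: base 1534 was at 29.2% and base 1617 at 100%. The 3 CpGs at bases 1656, 1672 and 1695 were at 53.8%, 59.0% and 56.4%, and the CpG at base 1704 was at 84.6%. In Dnmt1-/- the CpG at base 1617 kept 22.2%, 6 of 27 calls (95% Wilson interval 10.6 to 40.8), and the rest ranged from 0% to 8.89%. The Dnmt1-/- intervals of Pcdhb18 and Pcdhb20 overlapped, and those of Dnmt1+/+ did not.

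Since the genes are homologous, their CpGs were also put side by side by place in the coding sequence. The 150 coding CpGs, from 19 genes, averaged 79.3% in Dnmt1+/+ and 6.66% in Dnmt1-/-. The 10 CpGs in the 500 bases before the start codon, from 4 genes, averaged 54.7% in Dnmt1+/+ and 1.47% in Dnmt1-/-, both below the coding values. Within that class Dnmt1+/+ ran from 4.17% to 100%. The lowest, at base 37454490, was 2 of 48 calls, and lay just upstream of the annotated start of Pcdhb2. It had 48 and 50 calls, against 24 and 26 at bases 37454449 and 37454520 on either side. Whether calls there were counted more than once was not tested. Of the 22 genes, 12 had no non-site CpG within 1 kb of their start, so promoters are thinly covered.

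Along the coding sequence the Dnmt1-/- mean was 0.616% over 13 CpGs in the first 600 bases, 4.98% over 47 from there to base 1200, 8.39% over 70 from there to base 1800 and 8.48% over 20 between that base and the stop. The Dnmt1+/+ means of the same classes were 75.04%, 75.7%, 81.6% and 82.6%. The genes in each class were not the same. Split at base 1200, the Dnmt1-/- mean was 4.03% before and 8.41% after, and without Pcdhb22 and Pcdhb5 it was 4.12% and 4.71%, so the difference rested mostly on these genes. In Pcdhb5 the values before and after were 0% over 3 CpGs and 17.1% over 7, and over the 4 later CpGs whose 51 bases occur once 10%. The 3 earlier ones had 14 calls each in Dnmt1-/-, and their 51 bases occur more than once. Pcdhb19 gave 3.42% and 14.6%. Pcdhb2 gave 1.11% and 7.01%, and Pcdhb13 gave 2.40% and 5.71%. Pcdhb17 went the other way, with 9.20% before and 1.36% after, and 4.08% at the 1 later CpG whose 51 bases occur once.

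**Figure D3:**
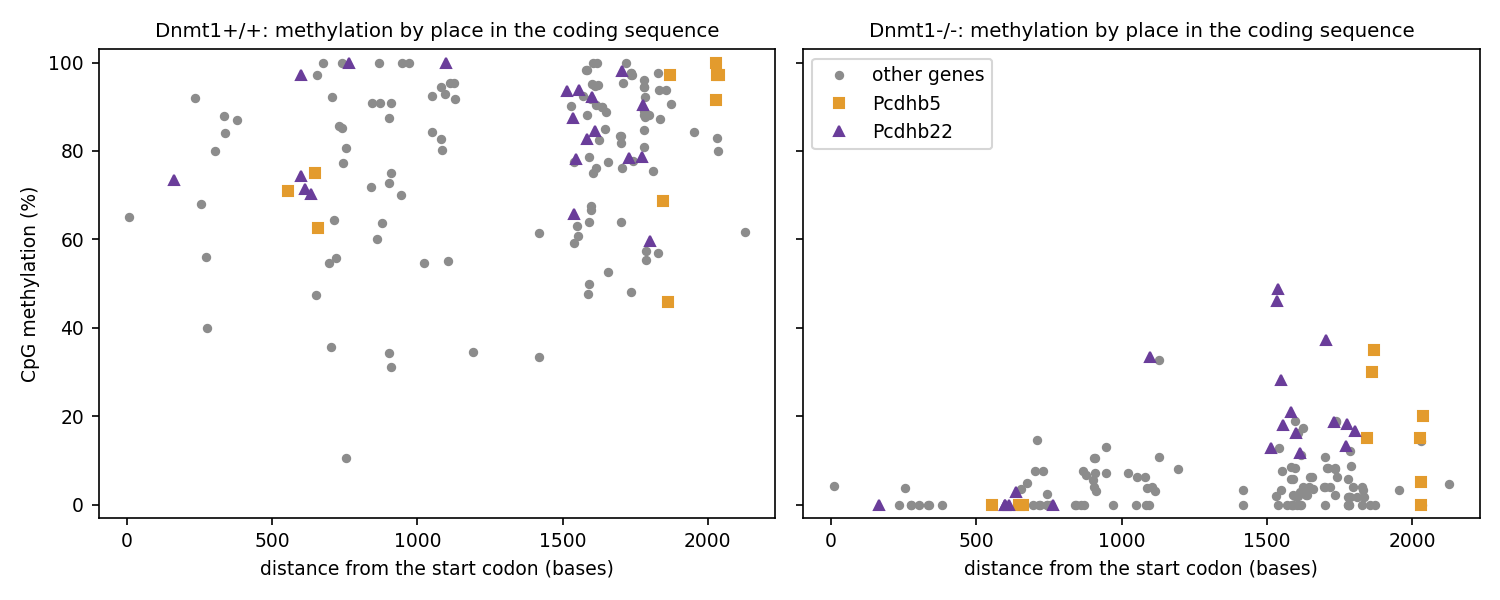
Methylation (%, vertical axis) of the 150 coding non-site CpGs against distance in bases from the start codon, in Dnmt1+/+ (left) and Dnmt1-/- (right), with Pcdhb22 as purple triangles, Pcdhb5 as orange squares and other genes in grey. In Dnmt1-/- the CpGs of Pcdhb22 from base 1099 on lie at 11.6% to 48.7%, above most CpGs at the same place in other genes.

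Within Pcdhb22 the Dnmt1-/- values differed along the exon. The 6 CpGs between coding bases 164 and 764 averaged 81.1% in Dnmt1+/+ and 0.463% in Dnmt1-/-, with 5 of them at 0%. The 14 CpGs between bases 1099 and 1802 averaged 84.5% and 24.3%, with a range in Dnmt1-/- of 11.6% to 48.7%. The split between these parts was placed after the values were seen. At base 1200, the split used for the other genes, the Dnmt1-/- means were 5.16% and 23.6%. Of the 13 CpGs after base 1200, 10 had surrounding 51 bases that occur more than once in the converted genome, and the other 3 averaged 13.6%. The CpG at base 1099, whose 51 bases occur once, had 33.3% over 12 calls.

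The exons share stretches of identical sequence, so the same CpG context could be compared between genes. A 21-base context was shared by CpGs of different genes in 17 groups. Pcdhb22, looked at because its Dnmt1-/- values were already known to be high, was in 8 of them and was the highest in each by 12.4 to 46.6 percentage points. These 8 are not independent, since bases 1536, 1538 and 1547 each had 39 calls in Dnmt1-/- and bases 1774, 1776 and 1802 each had 60, as CpGs on the same reads would. At coding base 1536 it was at 46.2%, and the matching CpG of Pcdhb7 was at 2.08%, while Dnmt1+/+ read 87.5% and 90%. At coding bases 1774 and 1776 Pcdhb22 was at 13.3% and 18.3%, and the matching CpGs of Pcdhb17 were both at 0% over 49 calls. In the only one of the 8 groups in which the 51 bases around both CpGs occur once, Pcdhb22 was at 16.3% and Pcdhb18 at 2.04%. In the 9 groups without Pcdhb22 the values differed by at most 4.10 points. Identical sequence means that a read could be placed at the wrong gene; its part in these values was not tested.

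The 10 CpGs above 20% in Dnmt1-/- comprised 6 in Pcdhb22, 2 in Pcdhb5 and 1 each in Pcdhb17 and Pcdhb20. Among CpGs at 80% or more in Dnmt1+/+ with at least 20 calls in both libraries, the highest was at base 37679670 in Pcdhb22, with 87.5% in Dnmt1+/+ and 46.2% in Dnmt1-/- (adjusted p = 0.00132, Fisher's exact test). The next was base 37679837, also in Pcdhb22, with 98.1% and 37.2%. Base 37482092 in Pcdhb5 went from 97.1% to 35.0% over 20 calls. At these 3 CpGs the surrounding 51 bases occur more than once. Base 37645939 in Pcdhb17 went from 95.5% to 32.7%. It had 132 and 110 calls, against 66 and 55 at bases 37645898 and 37645967 on either side, and whether calls there were counted more than once was not tested. Its surrounding 51 bases occur once, and the non-site CpG next to it upstream, at base 37645898, was at 3.64%.

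At the other extreme, 7 CpGs went from every call methylated to none. They lay at bases 37420055, 37440942 and 37547798 between genes, at base 37455371 in the coding exon of Pcdhb2, at base 37480127 in Pcdhb5 before its start codon, at base 37657777 in the coding exon of Pcdhb19 and at base 37678898 in that of Pcdhb22. Their depths were 10 to 23 calls. The Pcdhb2 CpG had 22 calls in Dnmt1+/+ and 15 in Dnmt1-/- (adjusted p = 1.49e-09, Fisher's exact test).

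Of the 8 CpGs that were not called, 3 were at 20% or less in Dnmt1+/+ already. Base 37454490 near Pcdhb2, base 37480211 in Pcdhb5 and base 37502221 in Pcdhb7 were at 4.17%, 20% and 10.5% in Dnmt1+/+. Pcdhb1 had 2 such CpGs, at 40% and 35.7%, and Pcdhb9 had 1 at 34.5%. The remaining 2 were intermediate in both libraries: base 37482085 in Pcdhb5 with 45.7% and 30.0%, and base 37679672 in Pcdhb22 with 65.6% and 48.7%.

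The Dnmt1-/- value was also set against CpG density within 100 bases. Over the 192 CpGs Pearson's r was 0.18 and Spearman's rho 0.24, as a description, since neighbouring CpGs share reads. Of 250 consecutive pairs within 100 bases, counted over all 351 CpGs, 130 had the same depth in both libraries. Among CpGs at 80% or more in Dnmt1+/+, the Dnmt1-/- mean was 4.58% with 0 to 4 neighbours, 5.84% with 5 to 9 and 8.45% with 10 or more. With calls pooled these were 8.47%, 4.81% and 7.56%, so the order of the classes depended on how they were averaged. Of the 673 pooled Dnmt1-/- calls with 0 to 4 neighbours, 110 were at base 37645939 in Pcdhb17, and 36 of these were methylated. Calls at that CpG may have been counted more than once, as said above, and the pooled value without it was not computed. A trend with density was not tested. Over all 192 CpGs the mean was 8.44% with 10 to 14 neighbours and 3.82% over the 11 CpGs with 15 or more. In the table the same 3 classes averaged 28.3%, 33.6% and 36.7%, and in exons 33.3%, 40.1% and 47.7%. The cluster was therefore below the table at each density.

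Set against the rest of the table, the 111 cluster CpGs at 80% or more in Dnmt1+/+ kept 6.76% in Dnmt1-/-, and 93.7% of them were at 20% or less. All such CpGs of the table kept 32.0%, with 42.9% of them at 20% or less. Exonic CpGs kept 40.8% and intergenic CpGs 25.4%. With 1 library per genotype these differences were not tested.

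The neighbouring clusters differed from each other. In the span of the annotated Pcdha gene records, 188 non-site CpGs averaged 57.2% in Dnmt1+/+ and 6.65% in Dnmt1-/-, and its 76 CpGs at 80% or more kept 11.2%. In the span of the annotated Pcdhg record, 450 CpGs averaged 67.8% and 42.8%, and its 239 CpGs at 80% or more kept 59.2%. The intervals of the pooled Dnmt1-/- calls for these CpGs were 6.06 to 7.55 in Pcdhb, 10.8 to 13.3 in Pcdha and 59.5 to 61.7 in Pcdhg, and none overlapped another.

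**Figure D4:**
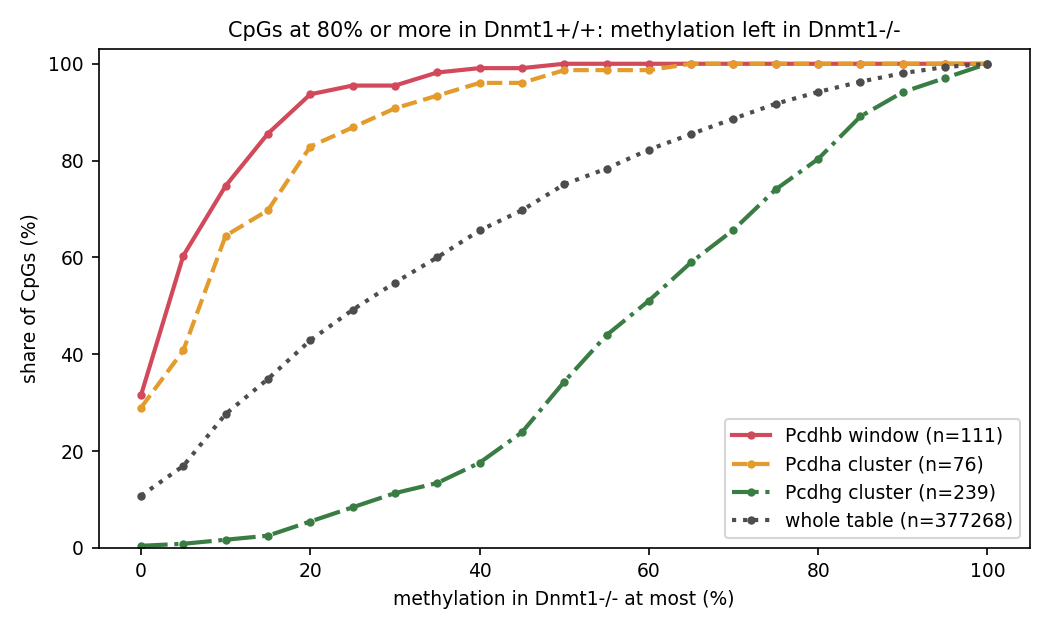
Cumulative share (%, vertical axis) of non-site CpGs at 80% or more in Dnmt1+/+ whose Dnmt1-/- methylation was at most the value on the horizontal axis (%), for the Pcdhb window, the Pcdha and Pcdhg clusters and the whole table. At 20% the Pcdhb curve has reached 93.7%, the Pcdha curve 82.9%, the curve of the table stands at 42.9% and the Pcdhg curve 5.44%.

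Low Dnmt1-/- values went on past the last gene, read here in stretches whose limit at 60 kb was not planned beforehand. In the first 60 kb after Pcdhb22, 29 CpGs averaged 83.6% in Dnmt1+/+ and 3.66% in Dnmt1-/-. In the next 59.5 kb, up to Taf7, a gene for a subunit of the general transcription factor TFIID, 22 CpGs averaged 87.4% and 37.9%. Around the start of Taf7, 22 CpGs were at 1.57% and 1.75%, unmethylated in both libraries. From there to the Pcdhg record 37 CpGs averaged 65.2% and 21.4%. On the other side, 16 CpGs between the Pcdha records and the window averaged 49.4% and 10.6%.

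Other genes related to the family or to its methylation were read within 1 kb of their starts. Of 13 non-clustered protocadherins, which are adhesion molecules encoded outside the arrays, 9 had at least 5 non-site CpGs, and 21 of their 273 CpGs were called lower and 0 higher, against 44.2% and 0.635% of CpGs in the table. The median of their means was 3.05% in Dnmt1+/+ and 1.75% in Dnmt1-/-, and the highest in Dnmt1+/+ was Pcdh8, with 14.7% and 2.71%. Of 16 factors known to act on the locus or on methylation, such as the insulator protein Ctcf and the cohesin subunit Rad21, 14 had at least 5 such CpGs, with medians of 1.28% and 1.06%. Of their 725 CpGs, 4 were lower and 1 higher, against the same 44.2% and 0.635%. Of 5 fibroblast markers, 2 had enough CpGs: Vim averaged 2.87% and 0.464%, and Col1a2 averaged 30.6% and 7.60%, with 3 of 42 CpGs lower and 0 higher. Of 7 markers of other cells, Cdh1 averaged 11.4% and 7.16%, and Epcam 29.1% and 12.4%, with 7 of 53 CpGs lower and 0 higher, both marker lists again against 44.2% and 0.635%. Listed genes with 1 to 4 CpGs stand outside these counts. Among them, Thy1 read 14.5% in Dnmt1+/+ and 32.3% in Dnmt1-/-, with 2 of 4 CpGs called higher. Pou5f1 read 79.6% and 33.0%, with all 4 lower, and Dnmt3l 73.7% and 4.35%, with all 3 lower. Pcdh9 read 69.4% and 24.7%, with 2 of 3 lower, and Rbfox3 84.6% and 2.27%, with both lower. The single CpG of Pecam1 was called lower, that of Col1a1 was at 0% in both libraries, and none of 4 in Pcdh11x was called. These values are methylation at gene starts, from which the cell type cannot be read.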

How the data were processed

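Genomic DNA from 1 library per genotype was profiled by RRBS at a sequencing provider, which mapped reads to mm9. Bismark is named in the submitters' processing notes, and its version and the conversion rate are not given in the sources used here. Depth, as deposited, counts the reads with a methylation call at each CpG. The authors removed CpGs under 10 calls in either library and gave methylation as the percent of methylated cytosine. Percent times depth was whole, within 0.001 calls, at 100% of CpGs.

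CpGs were placed with GENCODE vM1 on NCBIM37, 1-based. Means weigh CpGs equally. Fisher's exact tests behind the adjusted p used a function written for the purpose, checked against scipy 1.17.1 and on simulated data. The unadjusted p came from scipy. Table depth had medians of 29 and 30. Uniqueness was counted for the 51 bases around each CpG after C-to-T conversion of both strands. The genes named are Pcdhb18, Pcdhb20 and, among genes with at least 10 CpGs, the 3 highest and 3 lowest in Dnmt1-/- and by difference. The single CpGs named are those called higher, the 5 largest falls (extended to 7, which tie at 100 points), and the 5 highest in Dnmt1-/- among CpGs at 80% or more in Dnmt1+/+ with 20 calls. The CpGs that were not called, those that share a context, the genes with fewer than 5 CpGs were added after their values were seen. The members and lists were chosen with earlier results of these data known.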

Additional observations from a re-analysis of the deposited data

How the results depend on the processing

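No paired analysis was possible because there was a single library of each genotype, which also leaves no replicate to omit. With site CpGs included, the cluster means were 80.4% in Dnmt1+/+ and 26.9% in Dnmt1-/-, 55.6% of CpGs were low and 5.13% high in Dnmt1-/-, the medians over genes were 81.6% and 25.6%, and the coding means were 81.9% and 24.9%. At a depth of at least 20 the Dnmt1-/- mean was 6.73%, the gene medians were 82.1% and 5.01%, and the Dnmt1-/- coding mean was 7.56%. With only CpGs whose 51 bases occur once, the Dnmt1-/- mean was 4.69%, the low share 97.9%, the gene medians 79.8% and 5.30%, and the coding mean 5.38%. Within annotated genes the Dnmt1-/- mean was 6.46%, and without Pcdhb22, an alternative chosen after seeing the data, it was 4.56%. With limits of 10% and 90%, 0.521% of CpGs were low and 35.4% high in Dnmt1+/+, and 80.2% low in Dnmt1-/-. Thinned to 10 calls per library, 117 CpGs were called lower. Pooling calls gave a Dnmt1+/+ gene median of 79.3%, coding sequence alone 80.4%, and alignment on the gene start a Dnmt1+/+ mean of 78.3%. Pcdhb5 averaged 17.1% in Dnmt1-/- at a depth of at least 20, and Pcdhb22 7.68% over CpGs whose 51 bases occur once. That filter left out 10 CpGs of Pcdhb22, all after coding base 1200. No direction turned, and no alternative called a CpG outside the sites higher. At 10 calls a value of 0 allows up to 30%.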
